A study of Mus musculus with 6 samples.

Results

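The genes described here make prostaglandins and the first committed part of the leukotriene pathway. They are the cyclooxygenases Ptgs1 and Ptgs2, the terminal prostaglandin synthases Ptges, Ptges2, Ptges3 and Hpgds, the phospholipase Pla2g4a and the lipoxygenase-activating protein Alox5ap. They were chosen by gene symbol, all 8 were found among the 10780 genes of the deposited table, and all 8 passed the filter on low values. Ptges passed that filter only through its LPS-treated libraries.

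RNA was sequenced from RAW264.7 cells, a mouse macrophage-like tumour line, in 3 groups of 2 libraries each. Cells of the first group were given lipopolysaccharide (LPS), a bacterial product that activates macrophages, at 10 ng/ml together with Sal-B at 50 μmol/L. Cells of the second group were given LPS at 10 ng/ml without Sal-B, and control cells received neither agent. No group analysed here had Sal-B alone, the labels give no treatment time, and all groups are of 1 cell line. The libraries carry replicate numbers 2 and 3, and the labels leave unsaid whether they are separate cultures. The p-values therefore take in only library-to-library spread, which may be technical.

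In the prostaglandin pathway, cytosolic phospholipase A2 frees arachidonate from membrane lipids, and a cyclooxygenase turns it into the unstable intermediate prostaglandin H. Terminal synthases then convert this intermediate into prostaglandin E or prostaglandin D. In the leukotriene pathway the same arachidonate is passed by the protein that Alox5ap encodes to arachidonate lipoxygenase Alox5. Macrophages are known for inducing Ptgs2 and Ptges after LPS, while Ptgs1 is usually described as the constitutive cyclooxygenase.

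Levels are FPKM (fragments per kilobase of transcript per sequencing depth), as the authors deposited them, so they may be compared between genes. A fold change is a difference in log2(FPKM + 1) between group means, given with its standard error (SE). It understates the change of genes at low FPKM. A gene was called when its adjusted p in limma, over the 10014 genes tested, was under 0.05. The 3 comparisons share libraries and are not independent of each other.

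The libraries held 8639 to 9847 genes at 1 FPKM or more. Read depth was not used here, and the step between low values puts it very roughly at 6400000 to 8900000 fragments. The SD of the log2 difference between the replicates of a group was 0.19 for LPS plus Sal-B, 0.27 for LPS and 0.44 for control. Over all genes tested, log2 fold changes had a median of -0.40 for LPS against control and of -0.22 for LPS plus Sal-B against LPS. These were 0.01 and -0.05 once the libraries were scaled to the same median. That scaling moved the calls over all genes to 2898 higher and 2648 lower for LPS against control, beside 1421 higher and 4898 lower as deposited. For LPS plus Sal-B against LPS it gave 1766 higher and 2024 lower, beside 1054 and 3184 as deposited. Of 10 macrophage markers 9 were in the table, with a summed level of 706 to 718 FPKM with LPS plus Sal-B, 1541 to 1542 FPKM with LPS and 1442 to 1919.5 FPKM in control. Of 20 markers of other cell types, 19 were not in the table, and the other, Pecam1, lay between 0.907 and 1.02 FPKM with LPS plus Sal-B, between 0.125 and 0.216 FPKM with LPS and between 0.158 and 0.188 FPKM in control. In bulk RNA, fewer cells of a type and less RNA per cell cannot be told apart.

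The 2 cyclooxygenases went opposite ways with LPS. Ptgs2 was 106 times higher in mean FPKM than in control and Ptgs1 was 12.5 times lower, so that the order of the pair turned round. Of the synthases Ptges rose and Hpgds fell, and Alox5ap fell too. Of the 8 genes, 2 were called higher in LPS than in control, where 14.2% of all genes tested were called higher, and 3 were called lower, where the share was 48.9% (63.1% in either direction). With Sal-B added to LPS, Ptges and Hpgds were higher than with LPS alone and Ptges2, Pla2g4a and Alox5ap were lower. These are 2 genes called higher, against 10.5% of all genes, and 3 called lower, against 31.8% of all genes (42.3% in either direction). The shares of all genes are large, and the counts over 8 genes say nothing particular about the pathway. Of the calls with Sal-B added, only that of Alox5ap held whichever treated library was left out, as given for each gene below. The plot of FPKM by library gives every value.

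**Figure D1:**
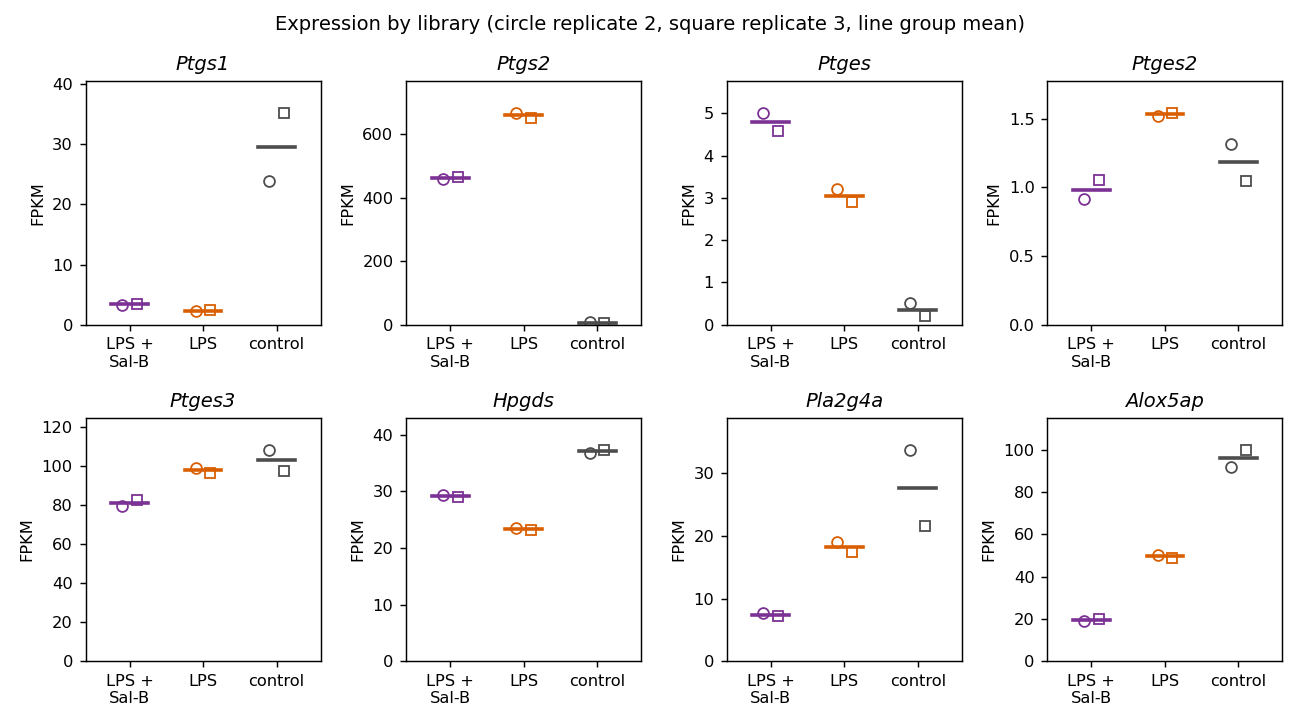
FPKM (linear axis, a separate scale for each panel) of the 8 genes in each library of LPS plus Sal-B, LPS and control; points are libraries and short lines are group means. Ptgs2 lies at 458 and 466 FPKM with LPS plus Sal-B, 667 and 652 FPKM with LPS, and 8.08 and 4.41 FPKM in control.

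Ptgs2 (ENSMUSG00000032487.8, GRCm38 chr1:150100031-150108227, plus strand) encodes cyclooxygenase-2, the inducible enzyme. It had 458 and 466 FPKM with LPS plus Sal-B, 667 and 652 FPKM with LPS, and 8.08 and 4.41 FPKM in control libraries. All treated libraries were far above both controls, and the libraries with Sal-B lay below those with LPS alone, with no overlap. The group means were 462 ± 5.41 FPKM with LPS plus Sal-B, 659 ± 10.6 FPKM with LPS and 6.25 ± 2.59 FPKM in control (SD, n = 2 each).

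By mean level Ptgs2 ranked 76 among the 10780 genes with LPS plus Sal-B, 67 with LPS and 5673 in control. The ratio of mean FPKM between LPS and control was 106, and the log2 fold change was 6.56 ± 0.24 (SE; limma adjusted p = 8.84e-05). Against LPS alone, LPS plus Sal-B gave a log2 fold change of -0.51 ± 0.24 with a 95% interval of -1.10 to 0.08, which did not pass the threshold (limma adjusted p = 0.135). The model's error for Ptgs2 takes in the control libraries. With only the 2 treated groups in the model the same difference was called (limma adjusted p = 0.000429), and leaving out either control library had the same result (limma adjusted p = 0.000488 without replicate 2 and 0.000481 without replicate 3). Other settings made it smaller or less certain: it was -0.26 with the libraries scaled to the same median (limma adjusted p = 0.376) and -0.17 under quantile normalization (limma adjusted p = 0.614). Leaving out a treated library gave a limma adjusted p of up to 0.332. With Sal-B, 69.8% of the rise in mean FPKM that LPS gave over control was still there.

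The letters before the RefSeq start of Ptgs2 (GRCm38, chr1:150099781-150100030, plus strand) are shown because this is the gene with the largest change of the 8. Capitals mark matches to a set of short motifs.

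Ptgs2 before the start: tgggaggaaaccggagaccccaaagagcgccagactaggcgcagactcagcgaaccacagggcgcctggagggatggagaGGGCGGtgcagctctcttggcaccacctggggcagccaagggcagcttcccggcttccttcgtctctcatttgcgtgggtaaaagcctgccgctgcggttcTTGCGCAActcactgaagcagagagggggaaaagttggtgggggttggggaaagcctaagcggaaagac
Ptgs2 after the start: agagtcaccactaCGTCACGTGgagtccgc

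The second line holds the first 30 bases after the RefSeq start (chr1:150100031-150100060). CGTCA, the core of a cyclic AMP response element, lies at base 14, and CACGTG, an E-box, overlaps it from base 17. All positions count from this annotated start, and whether transcription began there in these cells was not tested. Besides CGTCA and the E-box, the motifs searched for on both strands were the TATA box as TATAAA, a palindrome of the C/EBP type as TTGCGCAA, the GC box as GGGCGG, the AP-1 site as TGANTCA, and the κB motif. Before the start, TTGCGCAA began at position -69 and GGGCGG at position -170, with the base before the start as position -1. Of 32851 RefSeq windows of 250 bases before a start, 0.164% held TTGCGCAA and 32.7% held GGGCGG. Of the windows of 300 bases that go on past the start, 20.8% held CGTCA and 7.15% held CACGTG. A match is a description of these letters, not a binding site.

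In the 3′ untranslated region, ATTTA is the core of AU-rich elements through which mRNA turnover is known to be controlled. In the longest coding transcript of GENCODE M21, Ptgs2 held 14 such pentamers in 2445 bases. Of 8676 genes compared, 2.66% held as many or more. The stretch of 30 bases richest in them lies at bases 12 to 41 after the stop codon, with each ATTTA in capitals.

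Ptgs2 AU-rich stretch: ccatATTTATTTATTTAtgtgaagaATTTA

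Ptgs1 and Ptges had 0 ATTTA in 921 and 3106 bases. Pla2g4a had 4 in 443 bases, the highest density of the 8 genes at 9.03 per kilobase, beside 5.73 per kilobase for Ptgs2. Over the genes compared, the median count was 2 and the median length 1082 bases.

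Ptgs1 (ENSMUSG00000047250.13, chr2:36230426-36252272, plus strand) encodes cyclooxygenase-1. It had 3.32 and 3.41 FPKM with LPS plus Sal-B, 2.22 and 2.49 FPKM with LPS, and 23.8 and 35.2 FPKM in control libraries. Every treated library was below both controls, and the libraries with Sal-B lay above those with LPS alone. Mean FPKM was 12.5 times lower with LPS than in control, and the fold change on the log2 scale was -3.16 ± 0.19 (SE; limma adjusted p = 0.000257). LPS plus Sal-B against LPS gave 0.38 ± 0.19, with a 95% interval of -0.09 to 0.85 (limma adjusted p = 0.160). This too was called with only the treated groups in the model (limma adjusted p = 0.0141), but not when scaled to the same median (0.59, limma adjusted p = 0.0660) nor without any 1 treated library (limma adjusted p up to 0.404). The drop in mean FPKM under LPS plus Sal-B was 96.3% of that under LPS. Ptgs1 overlaps Gm43621 on the other strand, and whether strand was used in counting is not given in the sources used here.

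The letters before the RefSeq start of Ptgs1 (chr2:36230176-36230425, plus strand) are shown as the counterpart of Ptgs2, and none of the motifs was found there.

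Ptgs1 before the start: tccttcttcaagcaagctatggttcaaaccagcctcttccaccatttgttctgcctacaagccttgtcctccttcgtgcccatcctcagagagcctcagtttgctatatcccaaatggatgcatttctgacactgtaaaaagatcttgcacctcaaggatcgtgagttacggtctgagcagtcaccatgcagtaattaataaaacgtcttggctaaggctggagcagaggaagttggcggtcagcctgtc

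The balance of the 2 cyclooxygenases was set by library. Ptgs2 made up 99.3% and 99.3% of their summed FPKM with LPS plus Sal-B, 99.7% and 99.6% with LPS, and 25.3% and 11.1% in control. Both treated groups thus carried almost only Ptgs2 transcript, whereas Ptgs1 was the larger part in each control library. The ratio of Ptgs2 to Ptgs1 FPKM was 138 and 136 with LPS plus Sal-B, 300.3 and 261 with LPS, and 0.339 and 0.125 in control.

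On the log2 scale, with 1 FPKM added to each gene, the ratio was 6.73 and 6.72 with LPS plus Sal-B, 7.70 and 7.55 with LPS, and -1.45 and -2.74 in control. It differed by 9.72 between LPS and control and by -0.89 between LPS plus Sal-B and LPS, and in neither comparison did the libraries overlap. The exact two-sided permutation test gave p = 0.333 for both, the smallest p that 2 against 2 libraries allow. With 0.1 FPKM added, the second difference was -1.01. Summed cyclooxygenase FPKM was 462 and 469 with LPS plus Sal-B, 669 and 654 with LPS, and 31.9 and 39.6 in control.

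**Figure D2:**
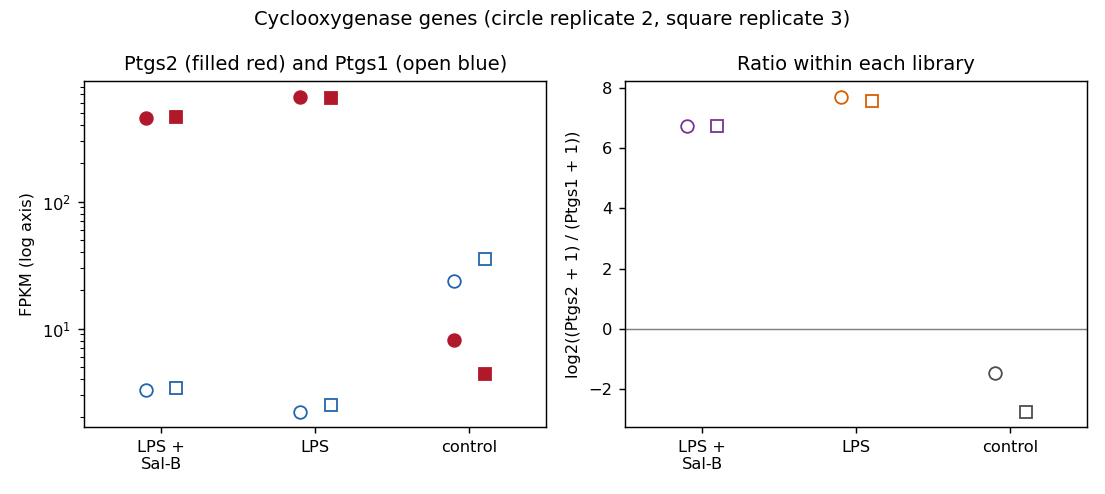
Ptgs1 and Ptgs2 FPKM (log axis) and the log2 ratio of Ptgs2 to Ptgs1 in each library of LPS plus Sal-B, LPS and control; points are libraries. The ratio is 6.73 and 6.72 with LPS plus Sal-B, 7.70 and 7.55 with LPS, and -1.45 and -2.74 in control, where Ptgs1 is the higher gene.

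Among the terminal synthases, Ptges (ENSMUSG00000050737.13, chr2:30889471-30929863, minus strand) encodes the inducible microsomal prostaglandin E synthase. It had 5.01 and 4.59 FPKM with LPS plus Sal-B, 3.21 and 2.90 FPKM with LPS, and 0.519 and 0.197 FPKM in control libraries. The 3 groups did not overlap, and the control values rest on roughly 17 and 5 fragments. Ptges rose with LPS against control, by 1.59 ± 0.15 on the log2 scale (SE; limma adjusted p = 0.000601). In mean FPKM it was 8.54 times higher, a ratio that rests on the few control fragments. Ptges passed the filter on low values only through its treated libraries, where it is high. Its p-values against control are therefore no separate support for a rise. Ptges was higher again with LPS plus Sal-B than with LPS, by 0.52 ± 0.15 (SE; limma adjusted p = 0.0370). That call was lost with a pseudocount of 0.1 (log2 fold change 0.63, limma adjusted p = 0.193) and without any 1 treated library (limma adjusted p up to 0.193). Ptges overlaps the pseudogene Gm13400 on its own strand.

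The letters before its RefSeq start (chr2:30903298-30903547, minus strand) are shown because Ptges was the other gene of the 8 that rose with LPS. GGGCGG begins at positions -53 and -42 from that start, and no other motif of the set was found.

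Ptges before the start: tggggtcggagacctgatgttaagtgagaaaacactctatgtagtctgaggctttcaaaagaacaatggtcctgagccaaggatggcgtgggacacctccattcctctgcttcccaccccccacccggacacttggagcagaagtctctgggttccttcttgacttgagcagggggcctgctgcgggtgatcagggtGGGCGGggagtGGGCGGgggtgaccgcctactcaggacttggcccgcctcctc

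Ptges2 (ENSMUSG00000026820.5, chr2:32395896-32405772, plus strand) encodes a membrane-associated prostaglandin E synthase. It had 0.913 and 1.05 FPKM with LPS plus Sal-B, 1.52 and 1.54 FPKM with LPS, and 1.31 and 1.05 FPKM in control libraries. The libraries with LPS alone were the highest, and those of the other groups overlapped. LPS against control gave a log2 fold change of 0.22 ± 0.11, with a 95% interval of -0.06 to 0.49 (limma adjusted p = 0.132). It was called higher when scaled to the same median (0.49, limma adjusted p = 0.0106), under quantile normalization (0.70, limma adjusted p = 0.00393) and without control replicate 2 (0.30, limma adjusted p = 0.0381). LPS plus Sal-B against LPS gave -0.35 ± 0.11 and was called (limma adjusted p = 0.0477). This call was lost with the libraries scaled to the same median (-0.23, limma adjusted p = 0.125) and without any 1 treated library (limma adjusted p up to 0.262).

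Ptges3 (ENSMUSG00000071072.12, chr10:128058954-128077272, plus strand) encodes the cytosolic prostaglandin E synthase, also known as the HSP90 co-chaperone p23. It had 79.7 and 82.6 FPKM with LPS plus Sal-B, 98.8 and 96.4 FPKM with LPS, and 108 and 97.1 FPKM in control libraries. LPS and control libraries overlapped, and both libraries with Sal-B lay below all others. LPS against control gave -0.07 ± 0.09 (95% interval -0.29 to 0.15; limma adjusted p = 0.514), and its direction depended on the scaling. It was called higher with the libraries scaled to the same median (0.43, limma adjusted p = 0.00621) and lower under quantile normalization (-0.27, limma adjusted p = 0.0239). LPS plus Sal-B against LPS gave -0.26 ± 0.09 (95% interval -0.48 to -0.04; limma adjusted p = 0.0604), and it was called with only the treated groups in the model (limma adjusted p = 0.00415). When scaled to the same median it was -0.02 (limma adjusted p = 0.877), and under quantile normalization 0.0075 (limma adjusted p = 0.941). A processed pseudogene, Ptges3-ps, is annotated, and reads may have been split with it.

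Hpgds (ENSMUSG00000029919.5, chr6:65117293-65144908, minus strand) encodes the haematopoietic prostaglandin D synthase. It had 29.3 and 29.0 FPKM with LPS plus Sal-B, 23.5 and 23.2 FPKM with LPS, and 36.7 and 37.4 FPKM in control libraries. The groups did not overlap, and those with Sal-B lay between the other groups. Hpgds fell by 0.65 ± 0.08 on the log2 scale with LPS against control (SE; limma adjusted p = 0.00131), a fall that lost its call with the libraries scaled to the same median (-0.15, limma adjusted p = 0.136). It was higher with LPS plus Sal-B than with LPS, by 0.31 ± 0.08 (SE; limma adjusted p = 0.0255), and by 0.55 when scaled to the same median (limma adjusted p = 0.00512). Without any 1 treated library this call was lost too (limma adjusted p up to 0.179).

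Set beside each other per library, Ptges stayed a small part of the prostaglandin E synthase transcripts. Its share of the summed FPKM of Ptges, Ptges2 and Ptges3 was 5.86% and 5.20% with LPS plus Sal-B, 3.10% and 2.88% with LPS, and 0.471% and 0.201% in control. Ptges3 held 93.1% and 93.6% of that sum with LPS plus Sal-B, 95.4% and 95.6% with LPS, and 98.3% and 98.7% in control. Ptgs2 exceeded Ptges by 91.4 and 102 times with LPS plus Sal-B, by 208 and 225 times with LPS, and by 15.6 and 22.4 times in control. The Ptgs2 transcript was thus less in excess of Ptges in each library with LPS plus Sal-B than with LPS alone. It was more in excess than in control. This is a description with no test.

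Upstream of the cyclooxygenases, Pla2g4a (ENSMUSG00000056220.14, chr1:149829618-149961290, minus strand) encodes cytosolic phospholipase A2. It had 7.68 and 7.21 FPKM with LPS plus Sal-B, 19.0 and 17.5 FPKM with LPS, and 33.7 and 21.6 FPKM in control libraries. The groups did not overlap, and the control libraries were the most spread. Mean FPKM was 2.45 times lower with LPS plus Sal-B than with LPS, and the fold change on the log2 scale was -1.19 ± 0.21 (SE; limma adjusted p = 0.00904). Without any 1 treated library the value stayed between -1.24 and -1.13 but was not called (limma adjusted p = 0.0508 to 0.0628). LPS against control gave -0.54 ± 0.21 and was not called (limma adjusted p = 0.0655), and the value rested on the control libraries and the scaling. Without control replicate 3 it was -0.85 and was called (limma adjusted p = 0.00117), without control replicate 2 it was -0.23 (limma adjusted p = 0.0575), and scaled to the same median it was -0.06 (limma adjusted p = 0.821).

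Alox5ap (ENSMUSG00000060063.9, chr5:149264767-149288153, plus strand) encodes the protein that presents arachidonate to 5-lipoxygenase. It had 19.1 and 19.9 FPKM with LPS plus Sal-B, 50.1 and 49.1 FPKM with LPS, and 91.8 and 100.1 FPKM in control libraries. The groups stepped down without overlap, lowest with Sal-B. Mean FPKM was 2.55 times lower with LPS plus Sal-B than with LPS, which on the log2 scale is -1.31 ± 0.09 (SE; limma adjusted p = 0.00138). LPS against control gave -0.94 ± 0.09 (SE; limma adjusted p = 0.000595), and -0.44 when scaled to the same median (limma adjusted p = 0.00882). Alox5ap was the only 1 of the 8 genes called in LPS plus Sal-B against LPS whichever single library was left out (limma adjusted p up to 0.0322). It overlaps the antisense gene Gm19719. The summed macrophage markers moved with these falls: 6 of 9 were called lower and 1 higher (Itgam, named after its value was seen) with LPS plus Sal-B than with LPS, with a median log2 fold change of -1.08, where 31.8% of all genes were lower. The count lower was 2 without any 1 treated library and 8 without either control library. The part of this in the falls of Pla2g4a and Alox5ap was not tested.

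**Figure D3:**
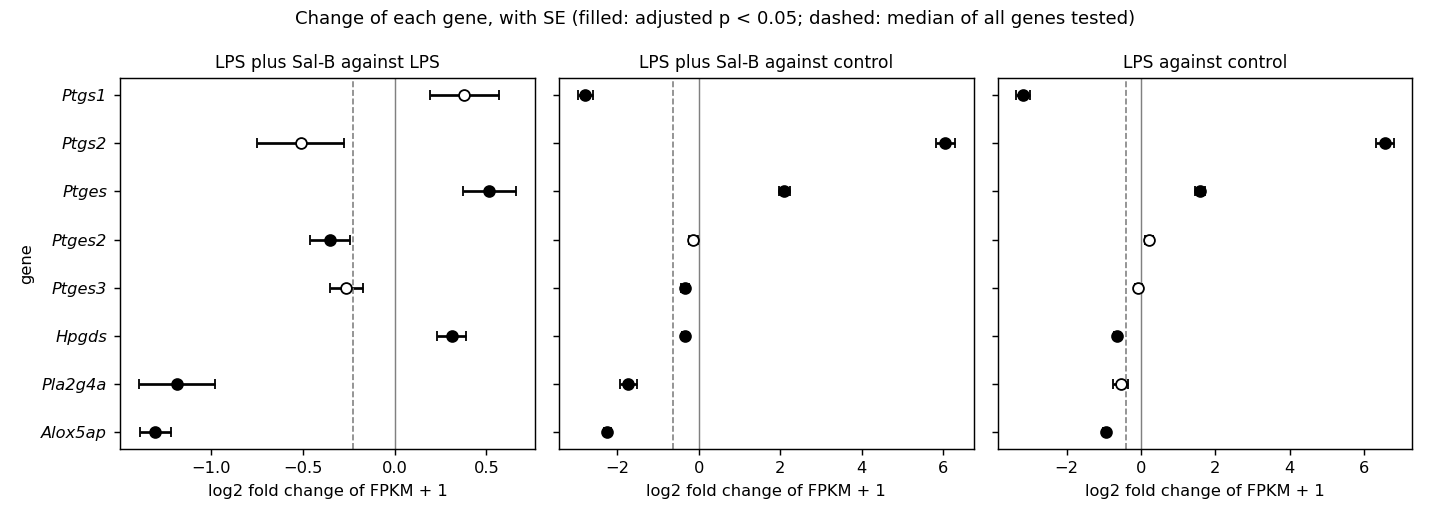
Log2 fold change of each of the 8 genes (x axis, difference in log2(FPKM + 1), with SE) in each comparison; filled points passed limma at adjusted p under 0.05 and the dashed line is the median of all genes tested. Ptgs2 and Ptgs1 lie at 6.56 and -3.16 for LPS against control, and Alox5ap and Pla2g4a at -1.31 and -1.19 for LPS plus Sal-B against LPS.

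Against control, LPS plus Sal-B left Ptgs2 higher by a log2 fold change of 6.04 (limma adjusted p = 7.81e-05) and Ptges by 2.10 (limma adjusted p = 0.000150). The p-value of Ptges is no separate support, because only its treated libraries carried it past the filter. Ptgs1, Ptges3, Hpgds, Pla2g4a and Alox5ap were lower, by log2 fold changes between -2.78 and -0.33. These are 2 genes called higher, where 14% of all genes were, and 5 called lower, where 58.8% were (72.8% in either direction). This comparison shares its libraries with the other comparisons and adds no separate evidence. Of the 4 terminal synthases, 3 were called higher and 0 lower when scaled to the same median, beside 1 and 2 as deposited. Hpgds and Ptges3 changed sign when the libraries were scaled to the same median, to 0.40 and 0.42, and lost their calls without either Sal-B library (limma adjusted p up to 0.0862 and 0.118).

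By level the genes kept no fixed order. In control the order was Ptges3, Alox5ap, Hpgds, Ptgs1, Pla2g4a, Ptgs2, Ptges2 and Ptges, where Ptges3 overlapped Alox5ap and Ptgs1 overlapped Pla2g4a in their libraries. With LPS it was Ptgs2, Ptges3, Alox5ap, Hpgds, Pla2g4a, Ptges, Ptgs1 and Ptges2, with no overlap of neighbours. With LPS plus Sal-B the order was the same except that Hpgds stood above Alox5ap.

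Other genes of the pathway were read by lists chosen with earlier results known. Among prostanoid synthases and catabolic enzymes other than the 8, 10 of 12 tested were lower with LPS than in control and 0 were higher (median log2 fold change -0.82, against -0.40 for all genes). Scaled to the same median, 4 were lower and 1 higher. Among other genes of the leukotriene and lipoxygenase pathway, 8 of 10 were lower and 2 higher (5 lower and 2 higher when scaled). Over all genes 48.9% were lower and 14.2% higher. Ltc4s, which makes leukotriene C, averaged 1.41 FPKM with LPS plus Sal-B, 2.70 FPKM with LPS and 15.6 FPKM in control. It fell by 2.18 ± 0.17 on the log2 scale with LPS against control (SE; limma adjusted p = 0.000436). Mgst2, Mgst3 and Ephx1 were lower too, by log2 fold changes of -1.90, -0.93 and -2.13. Alox5 itself, chosen after its values were seen, had 2.39 and 2.87 FPKM with LPS plus Sal-B, 1.74 and 1.35 FPKM with LPS, and 17.7 and 10.4 FPKM in control. Alox5 fell by 2.52 ± 0.25 with LPS against control (SE; limma adjusted p = 0.000745), and LPS plus Sal-B against LPS gave 0.51 ± 0.25 (limma adjusted p = 0.154).

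Of 12 genes in a list of phospholipases and other lipases, 3 were higher and 5 lower with LPS than in control. The share lower was below the 48.9% of all genes. When scaled to the same median, 5 were higher and 3 lower. Pla2g5, a secreted phospholipase A2, averaged 33.2 FPKM with LPS plus Sal-B, 48.9 FPKM with LPS and 9.93 FPKM in control. It rose with LPS against control by 2.23 ± 0.22 (SE; limma adjusted p = 0.000704). Abhd6, Pnpla7 and Daglb were lower, by -2.01, -1.80 and -1.60. Of 12 genes that activate or re-esterify arachidonate, 6 were lower with LPS than in control and 0 higher, close to the 48.9% of all genes lower, and 3 were lower and 3 higher when scaled. Mboat1, Lpcat3 and Acsl5, which attach acyl chains to lysophospholipids or to coenzyme A, gave -1.72, -0.97 and -0.83. At an unadjusted p under 0.05, 0 of these genes and 0 of the other prostanoid genes were higher in limma. With 1 library left out, calls among the lipases ranged from 1 to 5 higher and 3 to 6 lower; the lowest counts were without a treated library.

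With Sal-B added to LPS, 6 of these 12 activation and re-esterification genes were lower and 0 higher, against a background of 31.8% lower. When the libraries were scaled to the same median, 4 were lower and 1 higher. The 6 lower as deposited included Acsl3, Acsl5, Lpcat3 and Mboat1, with log2 fold changes of -0.69, -0.56, -0.42 and -0.63. The others, named after their values were seen, were Acsl4 and Lpcat2, with -1.12 and -1.49 (limma adjusted p = 0.00228 and 0.0420). Acsl4 averaged 12.8 FPKM with LPS plus Sal-B, 28.9 FPKM with LPS and 28.8 FPKM in control. With 1 library left out, the Acsl4 value stayed between -1.13 and -1.11. Of the 12 other prostanoid synthases and catabolic enzymes, 2 were lower and 0 higher, and without either control library 7 were lower and 1 higher. The 2 were Akr1b8, an aldo-keto reductase, and Cbr1, a carbonyl reductase known to act on prostaglandins. Akr1b8 averaged 13.7 FPKM with LPS plus Sal-B, 40.2 FPKM with LPS and 41.0 FPKM in control, and it fell by 1.49 ± 0.11 with LPS plus Sal-B against LPS (SE; limma adjusted p = 0.00160). Cbr1 fell by 1.03 ± 0.10 (SE; limma adjusted p = 0.00229). Of the 10 leukotriene and lipoxygenase genes, 2 were lower, Ltc4s and Mgst3, and 0 higher (1 lower and 2 higher when scaled).

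All 3 transporters tested were lower with LPS plus Sal-B than with LPS, Slco4a1 by -0.53, Abcc4 by -0.58 and Abcc1 by -0.39, and 1 of 3 was when scaled to the same median and 0 under quantile normalization (1 at an unadjusted limma p under 0.05). Of 4 receptors tested, Ptger4 and Ptgir, the receptors for prostaglandin E and prostacyclin, were lower, by -0.55 and -1.07, and the nuclear receptor Ppard was higher by 0.35. Ptgir lost its call when scaled to the same median (-0.86, limma adjusted p = 0.0538). Cysltr1, a receptor for cysteinyl leukotrienes, fell by 2.66 ± 0.29 with LPS against control (SE; limma adjusted p = 0.00101). Of 9 kinases and calcium proteins acting on cytosolic phospholipase A2 and lipoxygenase, 5 were lower with LPS plus Sal-B than with LPS and 0 higher (3 and 1 when scaled). Over all genes, 31.8% were lower and 10.5% higher in that comparison, and these lists are too short to set apart from those shares. Anxa1, Anxa2 and S100a10, annexins and an annexin partner known to bind or restrain phospholipase A2, gave -1.19, -0.82 and -0.93. Where 0 genes of a list were called higher with Sal-B, limma's unadjusted p was under 0.05 for 1 higher gene of the leukotriene list and for 0 of the other lists. With 1 library left out, calls lower with Sal-B ranged from 1 to 6 for activation and re-esterification, from 0 to 3 for transporters, from 0 to 2 for receptors, from 0 to 6 for the leukotriene list and from 3 to 7 for kinases and calcium proteins. Akr1b8, Cbr1, Anxa1, Anxa2 and S100a10 were called whichever library was left out.

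Regulators of Ptgs2 and Ptges transcription and mRNA stability moved both ways with LPS. Of 24 tested, 8 were higher and 10 lower than in control (11 and 4 when scaled to the same median), where 14.2% of all genes were higher and 48.9% lower. With LPS plus Sal-B against LPS, 2 were higher and 10 lower (6 and 7 when scaled, 0 to 5 and 3 to 11 with 1 library left out), near the 10.5% higher and 31.8% lower of all genes. Junb, a subunit of AP-1, had 12.9 and 13.0 FPKM with LPS plus Sal-B, 33.1 and 31.1 FPKM with LPS, and 10.6 and 10.4 FPKM in control. It rose with LPS against control by 1.53 ± 0.09 (SE; limma adjusted p = 0.000232) and fell by 1.25 ± 0.09 with LPS plus Sal-B against LPS (SE; limma adjusted p = 0.00146). Nfkb1 rose with LPS by 1.30 and gave 0.23 with Sal-B (limma adjusted p = 0.128). Atf2 and Zfp36l2 were lower with LPS than in control, by -1.07 and -1.32. They were lower again with LPS plus Sal-B than with LPS, by -0.62 and -0.80. The other regulators named here were chosen after their values were seen. Celf2 and Khsrp were the 2 called higher with LPS plus Sal-B than with LPS, by 0.81 and 0.28 (limma adjusted p = 0.00513 and 0.0328). Jun and Cebpb rose with LPS against control by 2.01 and 2.00. They gave 0.34 and -1.04 with LPS plus Sal-B against LPS (limma adjusted p = 0.185 and 0.0296). Egr1 is an immediate early factor and Zfp36 a protein that binds AU-rich elements. Egr1 averaged 0.959 FPKM with LPS plus Sal-B, 10.9 FPKM with LPS and 4.94 FPKM in control, and fell by 2.60 ± 0.26 with LPS plus Sal-B against LPS (SE; limma adjusted p = 0.00239). Zfp36 averaged 17.5 FPKM with LPS plus Sal-B, 75.5 FPKM with LPS and 17.5 FPKM in control, and fell by 2.05 ± 0.18 in the same comparison (SE; limma adjusted p = 0.00203).

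**Figure D4:**
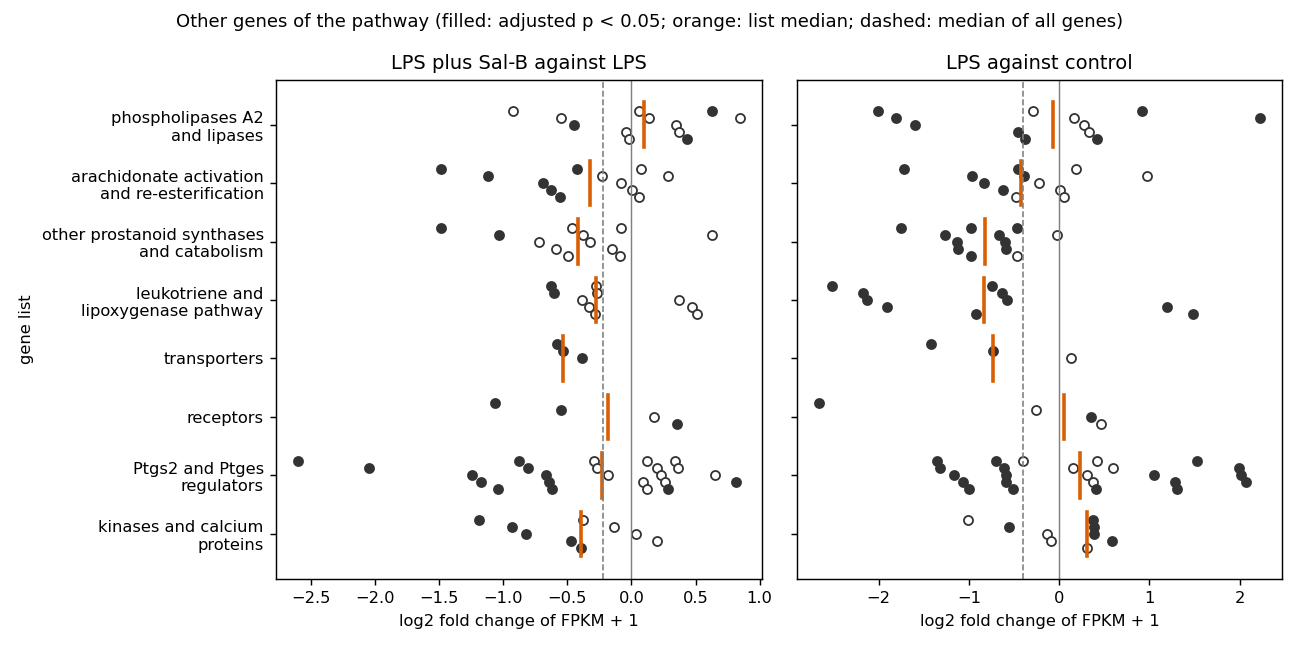
Log2 fold change (difference in log2(FPKM + 1)) of every tested gene of the other pathway lists for LPS against control and for LPS plus Sal-B against LPS; filled points passed limma at adjusted p under 0.05, orange marks are list medians and the dashed line is the median of all genes. The other prostanoid synthases and catabolic enzymes have 10 of 12 genes called lower with LPS, where 48.9% of all genes were. The activation and re-esterification genes have 6 of 12 called lower with Sal-B, where 31.8% of all genes were. Scaled to the same median, each of these 2 counts is 4 of 12.

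The tested genes with the profile most like each of 4 members were ranked by the root-mean-square distance, over the 6 libraries, of log2(FPKM + 1) minus the control mean. Nearest to Ptgs2 were Ccl5 at 0.70, Hspa1b at 0.81, Phlda1 at 0.87, Cxcl2 at 0.93 and Csf2 at 0.95. Of these, Ccl5, Cxcl2 and Csf2 had log2 fold changes of -1.73, -2.37 and -2.75 with Sal-B against LPS alone, and Hspa1b and Phlda1 had 0.69 and 0.20, beside -0.51 for Ptgs2. Nearest to Ptgs1 were Slc25a23 at 0.09, Cxcr4 at 0.28, Hacd4 at 0.28, Rab7b at 0.29 and Smpdl3a at 0.30. Nearest to Ptges were Tgfb1 at 0.11, Vasp at 0.11, Adam8 at 0.12, Lpl at 0.15 and Piezo1 at 0.16. This likeness holds only on the scale with 1 FPKM added, which shrinks the change of Ptges. Mean FPKM of Ptges was 8.54 times higher with LPS than in control, whereas Tgfb1 went from 22.8 FPKM in control to 65.3 FPKM with LPS. Nearest to Alox5ap were Pja2 at 0.04, Prps1l3 at 0.06, Papd4 at 0.06, Prkaa1 at 0.06 and Tmem38b at 0.09.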

How the data were processed

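RNA-seq of RAW264.7 cells was used as the FPKM values that the authors deposited for 6 libraries, with no change of scale. Per the submitters' processing notes, cutadapt, HISAT2 2.0.5, StringTie and GRCm38 were used, and per the labels' protocols RNA was selected by poly(A) or depleted of rRNA. Read counts were not used here, replicate 1 was not analysed here, and 1 emptied line of the table was skipped. The test, on log2(FPKM + 1), took genes that reached 1 FPKM in 2 or more libraries and was made with limma 3.58.1 in R 4.3.3 (all 3 groups in 1 model, 3 residual degrees of freedom, empirical Bayes with a trend, two-sided, Benjamini-Hochberg over 10014 genes). The fit was run on data simulated from its own fitted spread, the same in every group. That run cannot show how the fit handles the unequal spread of the groups or the shift in scale. The 8 genes and the pathway lists were chosen with earlier results of these data known. All 8 genes were named, with up to 4 genes of each list by smallest p and the 5 nearest profiles of 4 genes. Promoter windows came from RefSeq (GRCm38.p6) for 7 of the 8 genes, not for Alox5ap. Loci and 3′ ends came from GENCODE M21. Alternatives changed the pseudocount, filter, scaling, replicate block, trend and libraries.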

Additional observations from a re-analysis of the deposited data

How the results depend on the processing

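Across the alternatives, 299 log2 fold changes of the 8 genes kept their direction and side of the threshold, 16 gained a call, 38 lost one and 7 changed sign. With the libraries scaled to the same median, Ptges3 changed sign to 0.43 for LPS against control. In the comparison of LPS plus Sal-B with control, Ptges2 turned to 0.25, Ptges3 to 0.42 and Hpgds to 0.40. Quantile normalization turned Ptges2 to 0.50 for LPS plus Sal-B against control and Ptges3 to 0.0075 for LPS plus Sal-B against LPS. For LPS against control, Ptges3 lay between -0.15 and 0.0079 with 1 library left out, the sign turning without control replicate 2. The causes were not tested.

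Scaled to the same median, 4 genes were called higher and 2 lower for LPS against control (2898 and 2648 of all genes tested). For LPS plus Sal-B against control, 4 were called higher and 3 lower (3179 and 3207 of all genes tested). Between LPS plus Sal-B and LPS, pseudocounts of 0.1 and 0.5 and the replicate block each left 1 gene called higher, and a model with only the compared groups called 5 lower. Averaging each treated pair to 1 sample, chosen after seeing the data, left 0 called higher and 0 lower for LPS plus Sal-B against LPS, where limma called 0 of all genes (1481 had an unadjusted p under 0.05), 1 lower for LPS against control and 3 lower for LPS plus Sal-B against control. With 1 library left out, 2 to 3 genes were called higher and 3 to 5 lower with LPS against control, 0 to 3 higher and 1 to 5 lower between LPS plus Sal-B and LPS, and 2 higher and 3 to 5 lower for LPS plus Sal-B against control. Over all genes, 10.4% to 62.4% were called for LPS plus Sal-B against LPS. The log2 ratio of Ptgs2 to Ptgs1 differed by -1.01 between LPS plus Sal-B and LPS at a pseudocount of 0.1.

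Differences between replicates 2 and 3 correlated across genes at 0.0348, 0.0037 and 0.0139 between groups. With only 2 libraries in a group, this cannot settle whether the replicate numbers mark pairs. With the replicate block, Hpgds (adjusted p = 0.0604) and Ptges2 (adjusted p = 0.0848) lost their limma calls between LPS plus Sal-B and LPS, and Pla2g4a gained one for LPS against control (adjusted p = 0.0421). Depth may limit Ptges in control, where by a very rough estimate 5 to 17 fragments lie behind a value. The step used for that estimate rests on only 6 low values in control replicate 2 and 3 in control replicate 3.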
